A study of Mus musculus with 6 samples.

Results

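Glycolysis and the response to low oxygen were examined through 34 listed genes for glucose and lactate carriers, glycolytic enzymes, the oxygen sensor and targets of hypoxia-inducible factor (HIF). The members were chosen by name, with earlier results of these data known. Each was read from its probe set of highest mean among those annotated with that gene alone, which gave values for 31 of the 34 among 19938 genes measured. Gapdh, glyceraldehyde phosphate dehydrogenase, was covered only by probe sets that name several genes, and Gpi1 and Eno1 had no entry under these names in the probe annotation, so these 3 members were not analysed here.

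Glycolysis splits glucose into pyruvate in the cytosol, and lactate dehydrogenase turns pyruvate into lactate, which leaves the cell through monocarboxylate carriers. When oxygen is scarce, prolyl hydroxylases of the Egln family no longer mark HIF alpha subunits for destruction, and HIF then raises glucose carriers, most glycolytic enzymes, pyruvate dehydrogenase kinase and genes for mitophagy, pH control and collagen modification. Leukaemic pre-B cells driven by the BCR-ABL1 kinase are known for high glucose uptake, and several of these steps have paralogous enzymes whose genes are regulated separately.

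In the study 1 group of cells carried Cre-ERT2, a Cre recombinase that needs tamoxifen to enter the nucleus, and the other group carried the ERT2 vector without Cre (PMIP-CRE-ERT2 and PMIP-ERT2 in the labels), with 3 Affymetrix arrays each. All 6 samples were BCR-ABL1-transformed pre-B acute lymphoblastic leukaemia cells of strain C57Bl/6 and genotype Bcor fl/Y, so the ERT2 group shared the floxed allele, the transduction, the puromycin selection and 2 days of 4OH-Tamoxifen at 0.5 micromolar. No oxygen or glucose level is given in the labels, and an effect of Cre itself cannot be told apart from an effect of losing Bcor, since every Cre-ERT2 sample had both. Whether the replicates were separate cultures is not stated in the labels, and the p-values therefore reflect the spread among these 6 arrays alone, which may be technical.

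Bcor, a corepressor of the transcriptional repressor BCL6 and a subunit of a polycomb complex, had log2 expression values of 9.08, 9.22 and 9.18 in Cre-ERT2 replicates 1 to 3, against 10.07, 10.11 and 10.17 in ERT2 replicates 1 to 3. It fell by 0.96 on the log2 scale (SE 0.0491, limma adjusted p = 2.11e-05); its 1 probe set may lie partly outside the deleted part. The median log2 value over all probe sets was 8.61 to 8.68 in the Cre-ERT2 arrays and 8.61 to 8.66 in the ERT2 arrays. The cells carried pre-B markers, of which 9 of 10 were measured: their summed signal was 16.05 to 16.07 with Cre-ERT2 and 16.03 to 16.05 with ERT2 on the log2 scale, with the surrogate light chain gene Igll1 at 14.25 with Cre-ERT2 and 14.20 with ERT2. Of these 9 markers 1 rose, 1 fell and 7 were not called. Dntt, terminal transferase, averaged 8.67 ± 0.0664 with Cre-ERT2 and 7.81 ± 0.152 with ERT2 (SD, n = 3 each; log2 fold change 0.86, limma adjusted p = 0.00025), a larger change than that of any measured member. Rag1, a recombinase subunit, averaged 9.34 ± 0.0182 with Cre-ERT2 and 9.72 ± 0.0552 with ERT2 (-0.38, limma adjusted p = 0.000958). Of 10 myeloid markers Lyz2 rose by 0.45 and 9 were not called. The summed signal was 11.88 to 11.89 with Cre-ERT2 and 11.73 to 11.81 with ERT2, without overlap. Lyz2, the brightest of the 10, averaged 10.21 with Cre-ERT2 and 9.76 with ERT2 and weighs most in this sum. By log2 fold change 5 of the 10 lay above zero and 5 below, the latter including Mpo (-0.07) and Elane (-0.13). Of the defining myeloid markers, Csf1r averaged 7.77 with Cre-ERT2 and 7.87 with ERT2, Adgre1 7.08 with Cre-ERT2 and 7.04 with ERT2, and Ly6g 7.24 with Cre-ERT2 and 7.27 with ERT2; these arrays give no true zero. Of 8 T and NK cell markers Ncr1 fell and 7 were not called, with a summed signal of 10.77 to 10.80 with Cre-ERT2 and 10.79 to 10.89 with ERT2. Limma called 0 of 8 stromal markers (1 at an unadjusted p under 0.05) and 0 of 3 measured erythroid markers (0). Of all 19938 genes, 4590 lay under that unadjusted p. Summed signals of the stromal list were 11.50 to 11.55 with Cre-ERT2 and 11.55 to 11.62 with ERT2. The part of these cell types in the members' results was not tested.

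Among the 31 measured members 4 rose and 1 fell with Cre-ERT2. The oxygen sensor Egln3 rose 1.57-fold, the aldolase Aldoc 1.31-fold, the glycolytic regulator Pfkfb4 1.21-fold and the glucose carrier Slc2a3 1.12-fold, while the phosphofructokinase Pfkp was 1.17-fold lower. The other 26 members were not called, and 23 of these had a 95% confidence interval that lay within 0.2 log2 units of no change. The 23 include Hk1, whose probe set may read another transcript. Its probe set that lists RefSeq transcripts was at 0.19 (SE 0.0718). They also include Eno2, Ldhb and Car9, with group means of 8.05 to 8.31. The array medians over all probe sets were 8.61 to 8.68, and a narrow interval at dim signal need not show a steady level. In bulk samples fewer cells of a type and less RNA per cell cannot be told apart. The changes given here are therefore in signal relative to all RNA on the array.

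Calls required an adjusted p under 0.05 in limma, with adjustment over all 19938 genes. The members called higher made up 12.9% of those measured, against 4.05% of all genes, and the member called lower made up 3.23%, against 2.98% of all genes. The Cre-ERT2 and ERT2 arrays did not overlap for 11 members (35.5%), of which 7 lay above and 4 below, and the same held for 29.9% of all genes. Since the members were chosen with earlier results of these data known, these shares describe the list and are no test of it. The median log2 fold change of the members was -0.0092, against -0.037 over all genes, with 13 members above zero and 18 below. The changes of the members by role are plotted with their intervals.

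**Figure D1:**
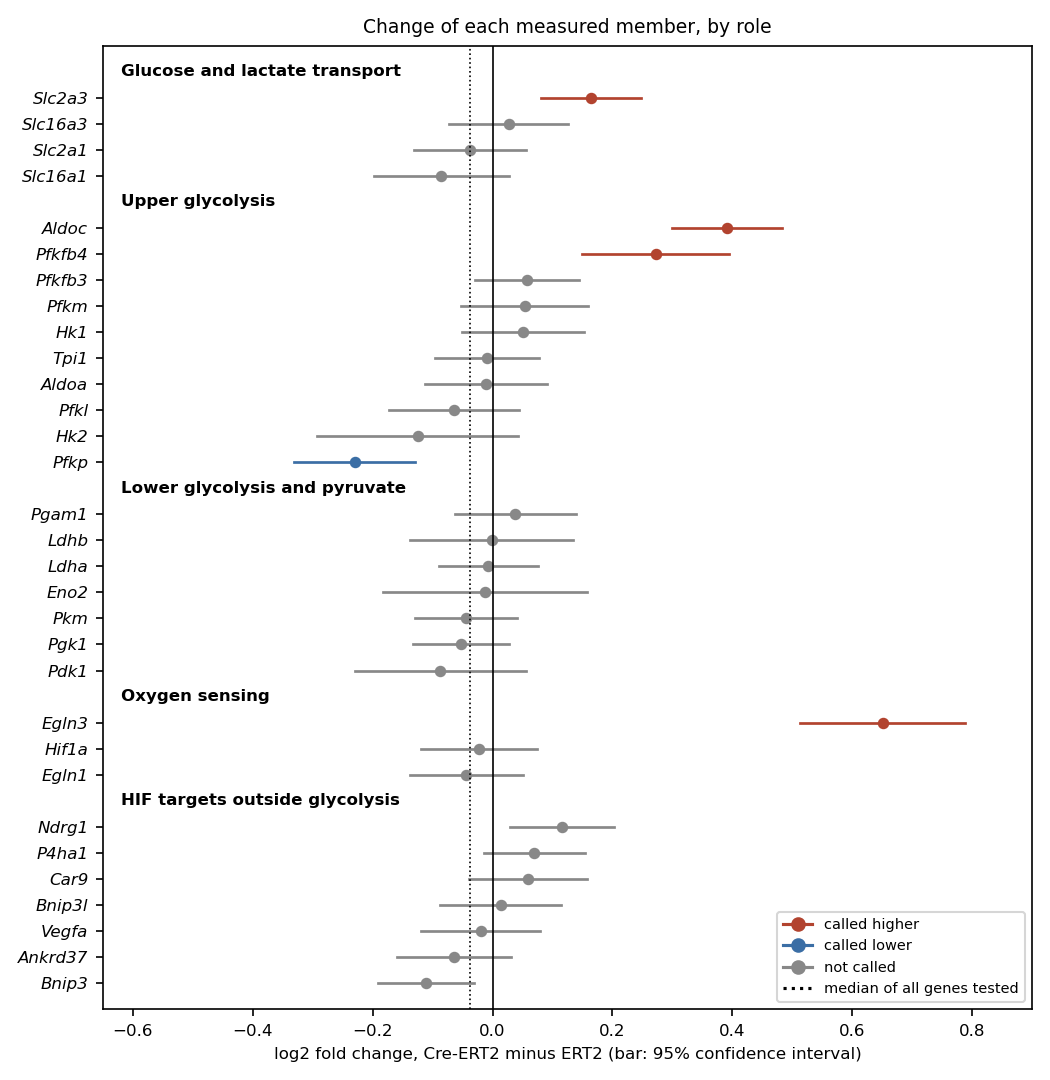
Log2 fold change of each measured member (Cre-ERT2 minus ERT2, 3 arrays each; point, estimate; bar, 95% confidence interval from limma), grouped by role, with the median of all genes as a dotted line. Egln3, Aldoc, Pfkfb4 and Slc2a3 lie above zero and Pfkp below as called genes, and the gray members, not called, lie between -0.13 and 0.12.

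The promoters of Egln3, Aldoc, Pfkfb4 and Pfkp are shown because these are the called members with a matched promoter. The called member Slc2a3 had none. That of Ldha is shown because it held the most matches to the HIF core motif among the members while its level was not called. Sequences are from RefSeq, build GRCm38.p6, and run from 250 bases before to 50 bases after an annotated start, 5′ to 3′ on the strand of the gene. Capitals mark the HIF core motif, spelled ACGTG, together with the form that has a different first base, spelled GCGTG, each searched on both strands. The E-box, spelled CACGTG, overlaps the core motif on both strands and was counted once per strand. The Ldha promoter shown holds 2 E-boxes, each giving 2 of its 7 matches, so its place as the highest may rest on this count.
Egln3, chr12:54203825-54204124, minus strand, 1 match: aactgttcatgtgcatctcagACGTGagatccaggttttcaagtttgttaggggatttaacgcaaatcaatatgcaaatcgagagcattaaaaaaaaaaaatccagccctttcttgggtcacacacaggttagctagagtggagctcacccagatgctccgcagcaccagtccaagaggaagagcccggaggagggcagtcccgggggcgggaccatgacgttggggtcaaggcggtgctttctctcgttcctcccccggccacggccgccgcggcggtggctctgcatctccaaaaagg
Aldoc, chr11:78322823-78323122, plus strand, 3 matches: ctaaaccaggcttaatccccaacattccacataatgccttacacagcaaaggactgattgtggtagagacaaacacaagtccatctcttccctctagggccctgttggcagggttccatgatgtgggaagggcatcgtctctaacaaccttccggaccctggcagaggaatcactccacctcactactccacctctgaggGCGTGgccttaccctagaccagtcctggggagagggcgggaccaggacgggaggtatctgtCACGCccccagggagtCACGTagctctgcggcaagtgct
Pfkfb4, chr9:108991652-108991951, plus strand, 1 match: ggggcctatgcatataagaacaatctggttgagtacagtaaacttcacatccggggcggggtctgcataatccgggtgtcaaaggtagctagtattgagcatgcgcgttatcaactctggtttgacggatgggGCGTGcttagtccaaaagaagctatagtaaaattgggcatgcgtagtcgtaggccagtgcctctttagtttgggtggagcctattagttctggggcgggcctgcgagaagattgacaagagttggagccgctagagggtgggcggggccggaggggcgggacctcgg
Pfkp, chr13:6648722-6649021, minus strand, 4 matches: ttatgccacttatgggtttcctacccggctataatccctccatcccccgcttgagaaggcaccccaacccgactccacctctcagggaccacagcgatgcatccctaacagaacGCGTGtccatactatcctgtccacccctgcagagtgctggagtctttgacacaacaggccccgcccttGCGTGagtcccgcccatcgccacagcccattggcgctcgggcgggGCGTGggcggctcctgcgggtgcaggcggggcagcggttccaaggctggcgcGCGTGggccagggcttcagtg
Ldha, chr7:46845554-46845853, plus strand, 7 matches: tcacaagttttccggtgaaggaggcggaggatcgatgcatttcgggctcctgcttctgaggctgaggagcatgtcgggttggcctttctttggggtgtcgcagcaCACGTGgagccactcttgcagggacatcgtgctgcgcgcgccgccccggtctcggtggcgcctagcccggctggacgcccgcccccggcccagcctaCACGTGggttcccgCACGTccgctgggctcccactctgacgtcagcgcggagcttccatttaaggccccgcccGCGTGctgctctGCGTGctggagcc

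The RefSeq table held 40 promoters of 28 of the 31 measured members, and Slc2a3, Ndrg1 and Bnip3l were not matched. A core motif in either spelling and on either strand was present in 32 of the 40 member promoters (80%), against 43.8% of all 32851 promoters of the same length. Counted by gene, 26 of the 28 members had a match in at least 1 promoter, and no such share was computed over all genes. The members were listed for glycolysis and the response to low oxygen, and the difference in share was not tested. Of all promoters, 19.6% held ACGTG. The other spelling, GCGTG, was in 32.4% of them, and the E-box in 7.15%. The motif TTCCTNGAA, a form of the site bound by BCL6, was present on either strand in 1.59% of all promoters and in 2 of the 40 member promoters, a second start of Aldoc, and Pfkm. A match is a run of letters and does not show that a factor binds there.

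Of 4 glucose and lactate carriers 1 rose and 3 were not called (median log2 fold change -0.0053). Slc2a3, a glucose carrier of high affinity, had log2 values of 8.43, 8.39 and 8.39 in the Cre-ERT2 arrays, against 8.25, 8.22 and 8.26 in the ERT2 arrays. All of these lay below the array medians over all probe sets (8.61 to 8.68), and whether this signal exceeds background was not assessed. Every Cre-ERT2 array lay above every ERT2 array, and each group spanned less than the gap between them. The means were 8.40 ± 0.0204 with Cre-ERT2 and 8.24 ± 0.0215 with ERT2 (SD, n = 3 each), a log2 fold change of 0.16 (SE 0.0366, 95% interval 0.08 to 0.25, limma adjusted p = 0.0315). This is the smallest change among the called members. Of the 6 fits that each drop 1 array, only the fit without Cre-ERT2 replicate 3 kept this call, and the adjusted p reached 0.115.

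Slc2a1, the carrier for basal glucose uptake, was at -0.04 (adjusted p = 0.610) with a 95% interval of -0.13 to 0.06. Slc16a1, which carries lactate and pyruvate across the plasma membrane, had the highest mean of the carriers' probe sets. Its log2 values were 13.08, 13.15 and 13.25 in the Cre-ERT2 arrays, against 13.24, 13.27 and 13.22 in the ERT2 arrays. Cre-ERT2 replicates 1 and 2 lay below the ERT2 arrays and replicate 3 lay among them, and the change of -0.09 was not called (adjusted p = 0.338). Slc16a3, a lactate exporter of strongly glycolytic cells, was at 0.03 (SE 0.0435).

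Upper glycolysis, from glucose to the triose phosphates, held 10 measured members, of which 2 rose, 1 fell and 7 were not called, with a median log2 fold change of 0.02. Aldoc, the brain-type aldolase, had log2 values of 12.05, 11.97 and 12.03 in the Cre-ERT2 arrays, against 11.62, 11.60 and 11.66 in the ERT2 arrays. The groups were far apart relative to their spread. The means were 12.02 ± 0.0392 with Cre-ERT2 and 11.62 ± 0.0331 with ERT2 (SD, n = 3 each), a log2 fold change of 0.39 (SE 0.0401, 95% interval 0.30 to 0.48, limma adjusted p = 0.000659). Aldoa, the aldolase of most tissues, was at -0.01 (adjusted p = 0.912), with an interval of -0.11 to 0.09.

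Pfkfb4 encodes a bifunctional enzyme that sets the level of a sugar bisphosphate that activates phosphofructokinase. Its log2 values were 9.07, 8.98 and 8.94 in the Cre-ERT2 arrays, against 8.79, 8.63 and 8.75 in the ERT2 arrays. The arrays did not overlap, and ERT2 replicate 2 was the lowest. The SD was 0.0648 with Cre-ERT2 and 0.0821 with ERT2 (n = 3 each), and Pfkfb4 rose by 0.27 on the log2 scale (SE 0.0539, 95% interval 0.15 to 0.39, limma adjusted p = 0.0190). This call was lost, at an adjusted p of at most 0.0694, when Cre-ERT2 replicate 1 or 2 or else ERT2 replicate 2 or 3 was dropped. Its relative Pfkfb3 lay higher in each Cre-ERT2 array than in each ERT2 array, but by 0.06 (SE 0.0383, adjusted p = 0.401).

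Pfkp, the platelet-type subunit of phosphofructokinase, which commits sugar to glycolysis, was the member that fell. Its log2 values were 12.24, 12.22 and 12.35 in the Cre-ERT2 arrays, against 12.50, 12.51 and 12.49 in the ERT2 arrays. All Cre-ERT2 arrays lay below the ERT2 arrays, with replicate 3 nearest to them. The means were 12.27 ± 0.0694 with Cre-ERT2 and 12.50 ± 0.0116 with ERT2 (SD, n = 3 each), a log2 fold change of -0.23 (SE 0.0444, 95% interval -0.33 to -0.13, limma adjusted p = 0.0170). This call was lost, at an adjusted p of at most 0.0828, when replicate 1 or 2 of either group was dropped. The liver-type subunit Pfkl was at -0.06 (adjusted p = 0.447) and the muscle-type subunit Pfkm at 0.05 (adjusted p = 0.520).

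The hexokinases trap glucose in the cell. Hk2, the inducible hexokinase, was at -0.13 and had among the widest intervals of the members, -0.29 to 0.04 (SE 0.0737, adjusted p = 0.347); Cre-ERT2 replicate 1 was at 10.67 and replicate 3 at 10.97, so the group's own range was larger than the difference. Hk1, the hexokinase of most tissues, had log2 values of 14.06, 14.03 and 13.95 in the Cre-ERT2 arrays, against 13.91, 13.97 and 14.00 in the ERT2 arrays. These overlapped (0.05, adjusted p = 0.520). This probe set carries 1 accession that 16 other probe sets naming both Hk1 and the ribosomal protein gene Rpl17 also carry, so it may read another transcript. The Hk1 probe set that lists RefSeq transcripts had 10.54, 10.66 and 10.77 in the Cre-ERT2 arrays, against 10.36, 10.56 and 10.48 in the ERT2 arrays, and was at 0.19 (SE 0.0718, adjusted p = 0.170 over all probe sets). Tpi1, which interconverts the triose phosphates, was at -0.01 (adjusted p = 0.907).

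Lower glycolysis and pyruvate use held 7 measured members, with a median log2 fold change of -0.01. Limma called 0 of them in either direction, and 0 had an unadjusted p under 0.05, against 4590 of all 19938 genes. Ldha, the lactate dehydrogenase subunit that favours lactate formation, had the highest mean of this group's probe sets. Its log2 values were 14.19, 14.18 and 14.21 in the Cre-ERT2 arrays, against 14.18, 14.21 and 14.22 in the ERT2 arrays. The arrays of both groups were interleaved, and the difference was -0.01 (SE 0.0361, 95% interval -0.09 to 0.08, adjusted p = 0.925).

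Pgk1 and Pkm, the enzymes that make ATP in this stretch, each lay lower in every Cre-ERT2 array than in any ERT2 array, by -0.05 (adjusted p = 0.407) and -0.04 (adjusted p = 0.515). The Pkm probe set read here lists no RefSeq transcript. The Pkm probe set that does had 12.60, 12.59 and 12.69 in the Cre-ERT2 arrays, against 12.63, 12.64 and 12.66 in the ERT2 arrays. These overlapped (-0.02, limma adjusted p = 0.825 over all probe sets). Pgam1, the phosphoglycerate mutase of most tissues, was at 0.04 (adjusted p = 0.635), and Eno2, the neuronal enolase, at -0.01 with a wide interval of -0.18 to 0.16. Ldhb, which favours pyruvate formation, was at -0.001 (adjusted p = 0.994). Pdk1, a kinase that switches off pyruvate dehydrogenase, was at -0.09 (95% interval -0.23 to 0.06, adjusted p = 0.435). Genes such as Pgk1, Pgam1, Tpi1, Aldoa and Ldha have processed pseudogenes in the mouse genome, and their probes may read more than the parent transcript.

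**Figure D2:**
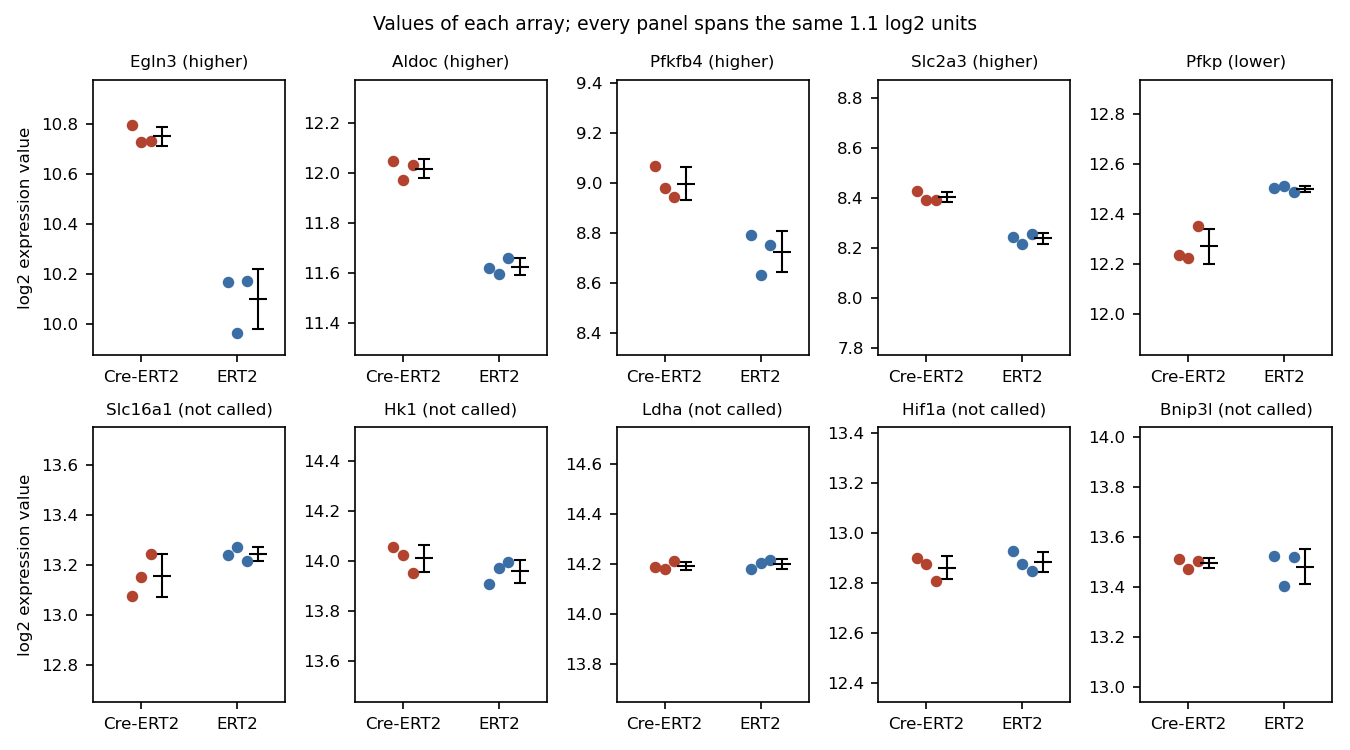
Log2 expression value of each array (points, Cre-ERT2 in red and ERT2 in blue; bars, mean ± SD, n = 3 each) for the 5 called members and the member of highest mean in each role, with every panel spanning the same log2 range. The groups are apart for Egln3, Aldoc, Pfkfb4, Slc2a3 and Pfkp and overlap for Slc16a1, Hk1, Ldha, Hif1a and Bnip3l. Hk1 is shown, as the highest of its role, from a probe set that may read another transcript.

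Of the 3 oxygen sensing genes 1 rose and 2 were not called. Egln3 encodes a prolyl hydroxylase that marks HIF alpha subunits for destruction and is itself a target of HIF. Its log2 values were 10.80, 10.73 and 10.73 in the Cre-ERT2 arrays, against 10.17, 9.96 and 10.17 in the ERT2 arrays. The lowest Cre-ERT2 array lay well above the highest ERT2 array, and ERT2 replicate 2 was the lowest of all. Egln3 averaged 10.75 ± 0.0375 with Cre-ERT2 and 10.10 ± 0.119 with ERT2 (SD, n = 3 each) and rose by 0.65 on the log2 scale (SE 0.0603, 95% interval 0.51 to 0.79, limma adjusted p = 0.000374), the largest change among the measured members. With any array left out the change was 0.58 to 0.69 and the adjusted p at most 0.00255.

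Hif1a, the oxygen-regulated HIF subunit, had log2 values of 12.90, 12.87 and 12.81 in the Cre-ERT2 arrays, against 12.93, 12.87 and 12.85 in the ERT2 arrays. The groups overlapped, and the difference of -0.02 was not called (SE 0.0423, 95% interval -0.12 to 0.07, adjusted p = 0.788). Hif1a activity is set mainly by protein stability, which the arrays do not measure. Egln1, the main prolyl hydroxylase acting on HIF in most cells, was at -0.04 (SE 0.0412, adjusted p = 0.559).

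Limma called 0 of the 7 measured HIF targets outside glycolysis. An unadjusted p under 0.05 was reached by 2, Bnip3 and Ndrg1, against 4590 of all 19938 genes. The median log2 fold change of these 7 targets was 0.01. Bnip3l, a mitophagy receptor, had the highest mean of their probe sets. Its log2 values were 13.51, 13.47 and 13.50 in the Cre-ERT2 arrays, against 13.52, 13.40 and 13.52 in the ERT2 arrays. They overlapped (0.01, adjusted p = 0.883). Its relative Bnip3 lay lower in every Cre-ERT2 array than in any ERT2 array, at 13.41 ± 0.0139 with Cre-ERT2 and 13.52 ± 0.0133 with ERT2 (SD, n = 3 each), and the difference of -0.11 had a 95% interval of -0.19 to -0.03 but did not pass over all genes (limma adjusted p = 0.107). Ndrg1, a stress-induced gene, lay above in every array by 0.12 (95% interval 0.03 to 0.20, adjusted p = 0.116).

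P4ha1, the catalytic subunit of collagen prolyl hydroxylase, also lay above in every Cre-ERT2 array, by 0.07 (adjusted p = 0.296). The growth factor gene Vegfa was at -0.02 (adjusted p = 0.819), the carbonic anhydrase gene Car9 at 0.06 (adjusted p = 0.443) and Ankrd37, an ankyrin repeat gene induced by hypoxia, at -0.06 (adjusted p = 0.394). Of these 7 targets 4 lay above zero and 3 below.

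Members that share a reaction or a function were next set against each other within each array, as the log2 value of the first minus that of the other, which cancels a shift common to an array. The 10 pairs were chosen with the changes of several members known, so their differences describe these arrays, and no share of non-overlapping pairs is read from them. Relative to its partner, Egln3 was higher with Cre-ERT2 by 0.69 log2 units against Egln1, Aldoc by 0.40 against Aldoa, Pfkfb4 by 0.21 against Pfkfb3 and Slc2a3 by 0.20 against Slc2a1. Pfkp was lower by -0.17 against Pfkl, whereas Pfkm was higher by 0.12 against Pfkl. Bnip3l was higher by 0.12 against Bnip3 and Slc16a3 by 0.11 against Slc16a1, where no member of either pair was called on its own. For each of these pairs the arrays of the groups did not overlap, and the two-sided exact permutation p was 0.1, the smallest that 3 arrays against 3 can give (0.125 adjusted over the 10 pairs), so no pair could pass 0.05.

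Ldhb against Ldha differed by 0.01 between the groups (exact permutation p = 0.9) and Hk2 against Hk1 by -0.18 (exact permutation p = 0.3), and both overlapped. The Hk2 pair rests on the Hk1 probe set of uncertain origin.

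**Figure D3:**
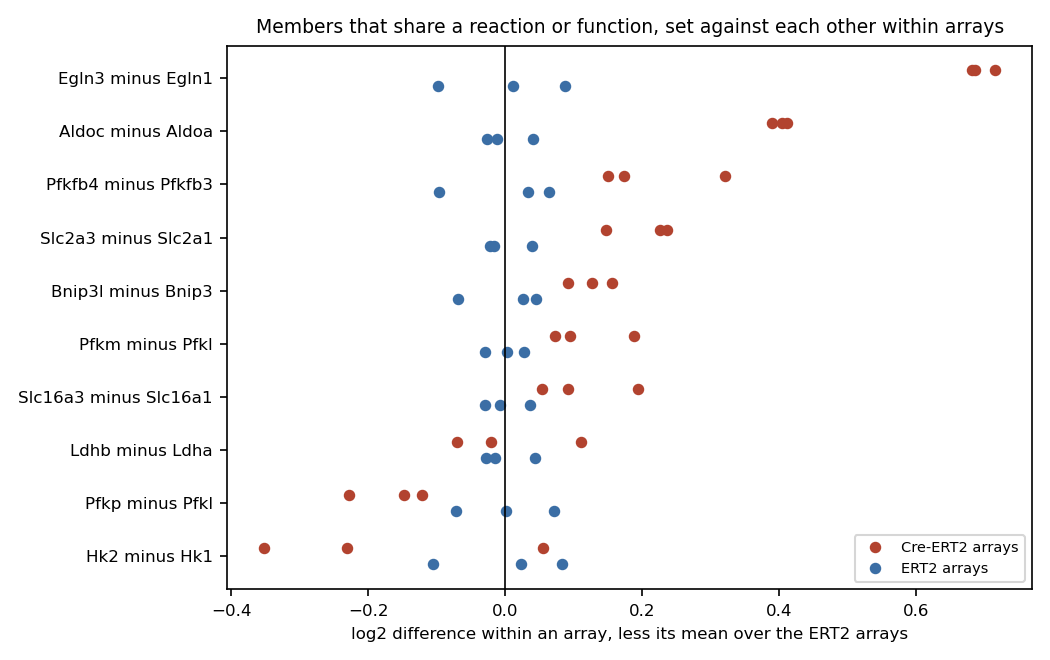
Difference in log2 value between 2 members within each array, less the mean of that difference over the ERT2 arrays (Cre-ERT2 in red, ERT2 in blue, 3 arrays each). The pairs with Egln3 (0.69) and Aldoc (0.40) are the farthest apart, the pair of Pfkp and Pfkl lies below zero (-0.17), and the pairs of Ldhb and Hk2 overlap.

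Around the members, 106 further genes of the same pathways were listed and 99 were measured, of which 2 rose, 5 fell and 92 were not called, with a median log2 fold change of -0.018. The shares were 2.02% higher and 5.05% lower, against 4.05% and 2.98% of all genes. These shares rest on few genes, and their difference from the background was not tested. Of 18 other enzymes of glycolysis and gluconeogenesis 1 fell, Pck2, the mitochondrial enzyme that makes phosphoenolpyruvate from oxaloacetate, which averaged 11.85 ± 0.0589 with Cre-ERT2 and 12.15 ± 0.0683 with ERT2 (SD, n = 3 each; log2 fold change -0.30, SE 0.0497, limma adjusted p = 0.00836). Of 12 genes for pyruvate dehydrogenase, its regulators and pyruvate carboxylase 1 rose and 1 fell. Pdp1, a phosphatase that switches pyruvate dehydrogenase on, averaged 10.90 ± 0.0222 with Cre-ERT2 and 11.22 ± 0.00458 with ERT2 (-0.32, SE 0.0358, limma adjusted p = 0.000998). Pcx, pyruvate carboxylase, which turns pyruvate into oxaloacetate, averaged 10.41 ± 0.0280 with Cre-ERT2 and 10.15 ± 0.0683 with ERT2 (0.26, SE 0.0453, limma adjusted p = 0.0100).

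Limma called 0 of 15 further carriers and their regulators and 0 of 7 genes of the pentose phosphate pathway, against 5 and 1 at an unadjusted p under 0.05. Of all 19938 genes, 4590 lay under that unadjusted p. The carriers of smallest p were Slc16a6, of the monocarboxylate carrier family, at 0.12 (adjusted p = 0.0977), and Emb, which escorts such carriers to the membrane, at 0.22 (adjusted p = 0.115). In the pentose phosphate pathway, Rpia, ribose phosphate isomerase, was at -0.10 (adjusted p = 0.176) and Tkt, transketolase, at -0.08 (adjusted p = 0.264).

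Of 17 genes of the HIF machinery 1 fell and 16 were not called. Siah2, a ubiquitin ligase that destroys Egln prolyl hydroxylases, averaged 10.55 ± 0.0463 with Cre-ERT2 and 10.76 ± 0.0622 with ERT2 (-0.21, SE 0.0462, limma adjusted p = 0.0319), a call that only the fit without ERT2 replicate 2 kept among the fits that each drop 1 array (adjusted p at most 0.0903). Of 30 other HIF targets 1 rose and 2 fell. Gbe1, the glycogen branching enzyme, averaged 10.93 ± 0.0767 with Cre-ERT2 and 11.31 ± 0.0443 with ERT2 (-0.38, SE 0.0492, limma adjusted p = 0.00241). Plod2, which hydroxylates lysine in collagen, was at 12.08 ± 0.0453 with Cre-ERT2 and 12.38 ± 0.00532 with ERT2 (-0.31, SE 0.0390, limma adjusted p = 0.00228). Higd1a, a mitochondrial protein induced by low oxygen, rose by 0.19 (SE 0.0394, limma adjusted p = 0.0208), a call lost when Cre-ERT2 replicate 1 or 2 or else ERT2 replicate 1 or 3 was dropped (adjusted p at most 0.0974).

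**Figure D4:**
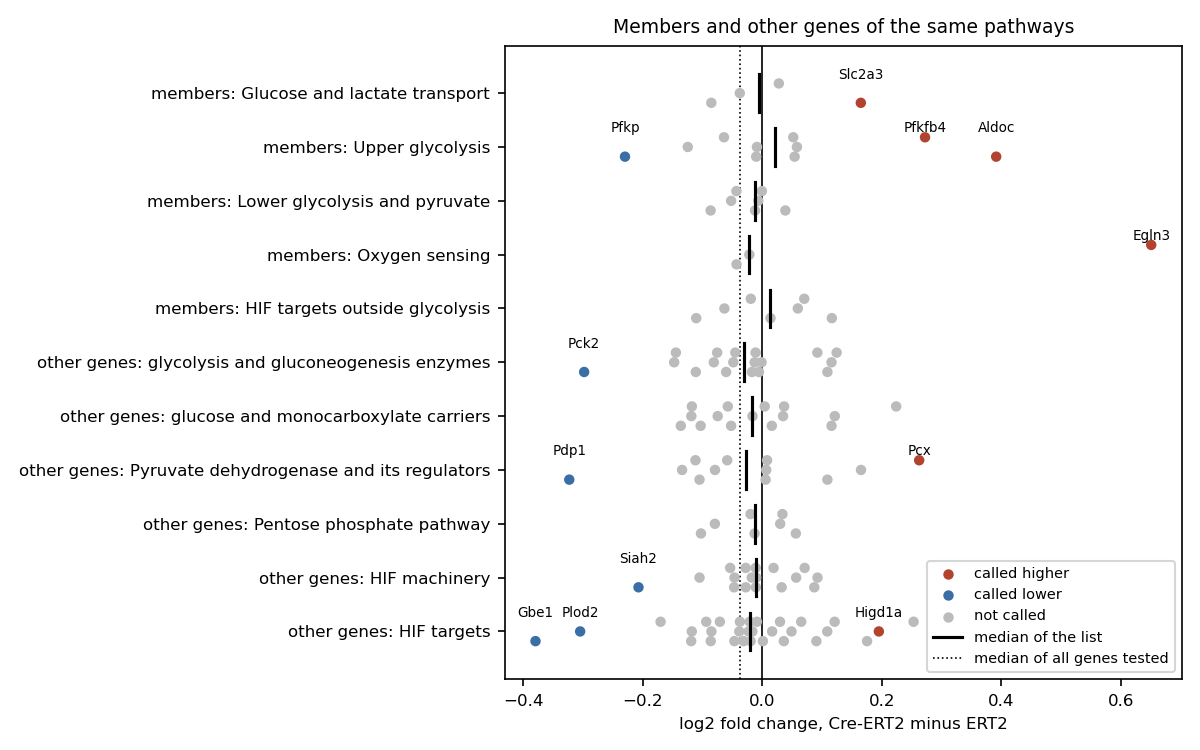
Log2 fold change (Cre-ERT2 minus ERT2) of each measured member, by role, and of 99 other genes of the same pathways, by list, with list medians as bars and the median of all genes as a dotted line. Called genes are named, and the list medians lie between -0.03 and 0.02.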

How the data were processed

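Gene expression was measured on 6 arrays. Each probe set has a deposited value on the log2 scale. The submitters' processing notes name RMA and Partek 6.5 without a role or order; which background correction and which genome build they used is not given in the sources used here. Of 35556 probe sets, 21789 name 1 gene, 1621 name several and 12146 are not listed in the platform annotation; 0 symbols needed an update. Each gene was read from the brightest probe set that names it alone, giving 19938 genes. Groups follow the labels (3 Cre-ERT2, 3 ERT2).

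Cre-ERT2 minus ERT2 was fitted by lmFit and eBayes of limma 3.58.1, with no trend, in R 4.3.3, with Benjamini-Hochberg adjustment over all genes, a threshold of 0.05 and no filter on dim probe sets. Precision is limited by the number of arrays, and the median SE of a log2 fold change was 0.0435 for the members and 0.0477 for all genes. The fit was tested on simulated data. Pairs of members were compared by an exact permutation test. Motifs were searched in RefSeq promoters (GRCm38.p6) in Python 3.11.15 using pandas 2.3.3. Plots used matplotlib 3.10.9, and the package data.table (version 1.17.8) was used to read files into R. Detection limits of the arrays were not used here, and no gene was called absent.

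The members, the lists of other pathway genes and markers, and the pairs were chosen with earlier results of these data known. Every member is named; values per array are given for called members, for uncalled members that differ by at least 0.2, of which there were 0, and for the member of highest mean in each role. Of each other pathway list, up to 4 called genes are named, or the 2 of smallest p. Alternatives were the replicate block, an intensity trend, array weights, quantile normalization, median centring, cyclic loess, the mean of all probe sets of a gene, a filter that drops the dimmest 30% or 50%, an adjusted p of 0.1, treat against 0.2, and fits that each drop 1 array. Using only probe sets that list a RefSeq transcript was added after the data were seen, because of Hk1.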

Additional observations from a re-analysis of the deposited data

How the results depend on the processing

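Every named change of a called member kept its direction in the 18 alternatives run (17 for Slc2a3, which the filter on the dimmest 50% left out). The replicate block, the intensity trend, the dim filters, the adjusted p of 0.1 and treat leave the estimates unchanged. Direction was therefore fixed in these alternatives. Each called member has 1 probe set, so the mean of probe sets and the RefSeq choice could not change its direction either. The call of Egln3 held in all 18, and that of Aldoc ended only under treat against 0.2, where 1 member was called higher and 0 lower. With quantile normalization, median centring, cyclic loess, the dimmest 30% left out, the mean of probe sets, an adjusted p of 0.1 or probe sets with a RefSeq transcript, the same 4 members were called higher and the same 1 lower. Of these, an adjusted p of 0.1 could add calls but not remove any. The probe set alternatives left the values of the called members as they were, so keeping those calls is no check of them. With the replicate block 3 were called higher and 0 lower (Slc2a3 and Pfkp were lost), and 805 of all genes were called, against 1402. What a replicate number marks is not given in the labels. Deviations of same-numbered arrays from their group means correlated at 0.0506, -0.0946 and -0.260. Those of differently numbered arrays correlated at -0.293 to 0.311. With 3 arrays in each group, these values do not settle whether the numbers mark a pairing. Members called lower numbered 2 with an intensity trend (adding Bnip3), 3 with array weights (adding Bnip3 and Hk2) and 2 without the dimmest 50% (adding Bnip3). Ndrg1 was called higher with array weights and without the dimmest 50%. With each array left out, 2 to 4 members were called higher and 0 to 1 lower; Aldoc and Egln3 were called each time, and the calls of Pfkfb4, Slc2a3 and Pfkp ended as given with their values. The cause of these changes was not tested. Some alternatives use fewer arrays or genes, and the part of that was not tested either.

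All genes called numbered 3339 with array weights, 2271 at an adjusted p of 0.1, 222 under treat and 743 to 1341 with each array left out. Of the calls 57.6% were higher, against 71.2% after cyclic loess, 67.8% with the replicate block and 77.9% under treat, while lower calls were the majority with array weights (39.4% higher) and at an adjusted p of 0.1 (47.6% higher). Uncalled members gave 465 values under the alternatives, of which 429 were uncalled with the same sign, 30 uncalled with the other sign and 6 called. Pair differences moved by less than 1 SD in all 128 values, and 125 kept their sign. Some of these values could not move, since median centring and the dim filters leave a difference within an array as it is. Of the other pathway genes called, Pck2, Pdp1, Pcx, Gbe1 and Plod2 lost their call only under treat; Siah2 and Higd1a also lost it with the replicate block, and Higd1a with the mean of its probe sets. Signal over background was not used here, so what it limits for dim probe sets was not assessed.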

Other observations

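Members with several probe sets were read from the brightest. Both Bnip3 probe sets were at -0.11, both Bnip3l probe sets were above zero (0.01 and 0.03), and both Pkm probe sets were below it (-0.04 and -0.02). The groups overlapped in the Pkm probe set at -0.02, which is the one that lists RefSeq transcripts. Of 3 Pgk1 probe sets and 3 Pgam1 probe sets, a pair of each held identical values in all 6 arrays, so they do not count as separate readings. The probe sets of Hk1 differed most, at 0.19 for that which lists RefSeq transcripts and 0.05 for the brighter. The 16 probe sets that share its accession and also name Rpl17 had mean log2 values of 13.09 to 14.09, a range that holds the brighter Hk1 probe set at 13.99.

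Among regulators of pyruvate dehydrogenase, the phosphatase gene Pdp1 fell, while the kinase genes Pdk3 (0.01, adjusted p = 0.933) and Pdk4 (0.01, adjusted p = 0.938) were not called and Pdk2 lay above in each Cre-ERT2 array by 0.16 (95% interval 0.04 to 0.29, adjusted p = 0.128). Among partners of Hif1a and Egln3, Arnt was at 0.03 (adjusted p = 0.656), Vhl at 0.09 (adjusted p = 0.278) and Egln2 at -0.02 (adjusted p = 0.829). These genes were chosen after their values were seen.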
